A study of Mus musculus with 8 samples.

Results

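The genes of the Hoxa, Hoxb, Hoxc and Hoxd clusters were examined in single-nucleus ATAC-seq profiles of the mouse embryonic forebrain. Members were the protein-coding genes whose symbol is Hoxa, Hoxb, Hoxc or Hoxd followed by digits alone, which gave 39 of 21938 such genes in GENCODE release M21. On GRCm38 the 11 Hoxa genes span chr6:52155590-52260880, the 10 Hoxb genes chr11:96194316-96368256, the 9 Hoxc genes chr15:102921103-103036852 and the 9 Hoxd genes chr2:74668310-74765142. Hox genes encode homeodomain transcription factors that give cells of the embryo their position along the axis from head to tail. Within a cluster the genes lie in the order of their use, from anterior genes of low paralog number to posterior genes of high paralog number. Their anterior limits of expression lie in the hindbrain and spinal cord, so the forebrain is known as a tissue without Hox transcripts, and silent Hox clusters are a textbook target of Polycomb repression.

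The 8 libraries were wild-type brain tissue of 4 regions, 2 libraries each, namely cortex (CTX) and 3 parts of the ventral forebrain that are jointly called GE, the medial (MGE), the lateral (LGE) and the caudal (CGE) eminence. Tissue was taken at E12.5 except for CTX replicate 2, taken at E14.5, so the CTX group holds 1 library of each age. Strain, sex and the number of embryos pooled are not given in the sources used here, so p-values measure the spread between these libraries, which may be technical. The libraries held 3465 to 6845 nuclei, 39253 in all, with 77387940 to 138873845 counts in peaks and a median of 14584 to 22209.5 counts per nucleus. Between 15 and 56 barcode sequences were shared by a pair of libraries. Odd counts made up 9.54% to 10.4% of matrix entries in the 4 replicate 1 libraries and 5.17% to 5.85% in the 4 replicate 2 libraries, so the replicate numbers mark a technical split with 1 library per region on each side. The CTX libraries shared almost no cluster of nuclei, with 3100 of 4108 nuclei of replicate 1 in a glutamatergic-like cluster and 3537 of 4946 of replicate 2 in a cortical hem or choroid-like cluster. The latter name rests on 5 of 7 markers raised (log2 fold above 0.5), Wnt3a and Bmp4 not among them. In that cluster 3 glutamatergic markers were raised too. Of 13 forebrain transcription factors fixed as a check of tissue, 4 were higher in CTX than in GE (Lhx2, Otx1, Emx2 and Emx1). Another 4 were lower (Dlx1, Dlx2, Nkx2-1 and Six3). Both counts are from edgeR's quasi-likelihood test at an adjusted p of 0.05 or less, which called 4.51% of all genes.

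The sequence around Hox start sites is shown first because the accessible stretches below lie over it. RefSeq promoters (250 bases before to 50 after a start, GRCm38.p6) matched 22 of the 39 members with 24 entries, and 12 of these entries overlapped a peak in all 8 libraries. Hoxd1 and Hoxd13, at the anterior and posterior ends of the Hoxd cluster, were among these 12. The Hoxb1 entry overlapped a peak in 5 libraries and the Hoxb8 entry in 1. The 250 bases upstream of these 4 starts are printed 5′ to 3′ on the plus strand, at chr2:74762730-74762979 (Hoxd1), chr2:74667975-74668224 (Hoxd13), chr11:96365508-96365757 (Hoxb1) and chr11:96281655-96281904 (Hoxb8). A stretch of 300 bases within an intron of Hoxb6, chr11:96294577-96294876 on the plus strand, is added. Of the regions below whose covered length stayed within 2-fold, the one around it had the highest median counts per kb. Capitals mark CpG dinucleotides, the sites of DNA methylation.
Hoxd1: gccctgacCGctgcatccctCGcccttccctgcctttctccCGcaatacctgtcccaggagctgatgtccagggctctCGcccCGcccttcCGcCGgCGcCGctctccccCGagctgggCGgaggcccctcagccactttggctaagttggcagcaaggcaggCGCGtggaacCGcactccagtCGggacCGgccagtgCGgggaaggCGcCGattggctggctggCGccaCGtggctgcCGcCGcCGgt
Hoxd13: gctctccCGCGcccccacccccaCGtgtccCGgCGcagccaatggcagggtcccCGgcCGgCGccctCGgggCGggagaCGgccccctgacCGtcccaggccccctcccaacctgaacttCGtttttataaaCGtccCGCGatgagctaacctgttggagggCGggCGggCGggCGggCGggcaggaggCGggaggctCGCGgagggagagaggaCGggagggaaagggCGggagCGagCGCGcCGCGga
Hoxb1: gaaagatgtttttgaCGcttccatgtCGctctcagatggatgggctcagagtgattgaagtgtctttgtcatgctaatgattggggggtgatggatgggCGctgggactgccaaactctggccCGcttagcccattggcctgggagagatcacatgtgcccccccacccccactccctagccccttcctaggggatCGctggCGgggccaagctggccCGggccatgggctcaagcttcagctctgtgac
Hoxb8: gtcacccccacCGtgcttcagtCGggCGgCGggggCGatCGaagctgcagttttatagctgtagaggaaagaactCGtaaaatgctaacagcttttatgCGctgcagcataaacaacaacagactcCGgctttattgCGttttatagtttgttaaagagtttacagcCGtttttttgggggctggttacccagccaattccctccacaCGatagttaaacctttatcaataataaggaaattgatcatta
region over Hoxb6: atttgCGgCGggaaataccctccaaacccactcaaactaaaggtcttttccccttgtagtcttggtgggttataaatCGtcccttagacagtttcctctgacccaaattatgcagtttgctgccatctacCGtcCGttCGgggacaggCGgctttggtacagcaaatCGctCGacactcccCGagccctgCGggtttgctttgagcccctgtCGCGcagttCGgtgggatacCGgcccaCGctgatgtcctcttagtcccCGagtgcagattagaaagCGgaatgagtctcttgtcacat

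The printed stretches held 24 CpG for Hoxd1, 31 for Hoxd13, 7 for Hoxb1, 12 for Hoxb8 and 18 for the Hoxb6 region. Over the full promoter entries, each 300 bases long, Hoxd1 held 29 CpG, Hoxd13 37, Hoxb1 10 and Hoxb8 13, and the median over all 32851 entries was 7. The 12 Hox entries with a peak in every library had a median of 21 CpG (6 to 45), and the 12 with a peak in fewer libraries had 11.5 (4 to 26). These ranges overlapped. Searched on both strands, CCAAT was present in 15 of the 24 entries (37.4% of all entries), GGGCGG in 10 (35.7%), the retinoid receptor element AGGTCA in 7 (16.3%), TATAAA in 4 (13.6%) and TGATNNAT, a form of the joint PBX and HOX site, in 4 (8.85%). None of these motifs contains another, overlaps at their ends were kept, and a match is a description of the letters alone.

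The Hox clusters lay in peaks over much of their length. Peaks covered 28.6% and 47.4% of the 491.815 kb of the 4 clusters in CTX replicates 1 and 2, 55.1% and 49.7% in MGE, 14.4% and 44.4% in LGE, and 19.8% and 53.2% in CGE. The 3 low values belonged to replicate 1 of CTX, LGE and CGE, and the ranges of all 4 regions overlapped except that both MGE libraries lay above both CTX and both LGE libraries. In the same libraries peaks covered 5.42% to 9.74% of all protein-coding genes with their upstream 2 kb, so the Hox clusters were covered 2.63 to 8.26 times as densely. Flanks of the same length on either side of the clusters were covered to 5.12% to 12.3%.

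**Figure D1:**
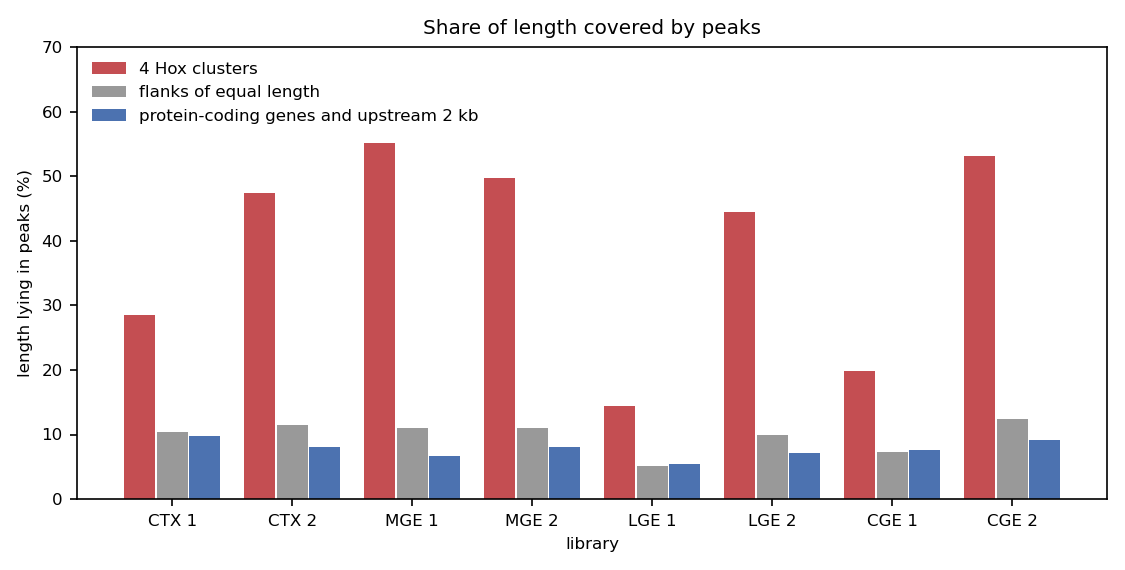
Share of length lying in peaks (%, vertical axis) in each of the 8 libraries, for the 4 Hox clusters, for their flanks of equal length and for all protein-coding genes with 2 kb upstream. The Hox bars run from 14.4% to 55.1% and stand above the other bars in every library.

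Among the clusters, Hoxa was covered to a median of 64.0% over the 8 libraries (24.8% to 75%), Hoxd to 57.5% (20.9% to 65.4%), Hoxc to 49.7% (12.6% to 62.2%) and Hoxb to 25.9% (5.75% to 35.9%). Hoxb is the longest of the 4, and its stretch from 3.131 to 77.141 kb, between Hoxb13 and Hoxb9, holds no member. The lowest value of every cluster came from LGE replicate 1. With peaks below the 25th percentile of counts per kb in their library left out, the 4 clusters together were covered to 7.64% in LGE replicate 1 and 12.6% in CGE replicate 1, which was 1.57 and 1.85 times the share over all genes. In that setting Hoxb and Hoxc in LGE replicate 1 (4.40% and 3.67%, against 4.86% over all genes) and Hoxb in CGE replicate 1 (5.83%, against 6.80%) were covered less than genes at large.

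**Figure D2:**
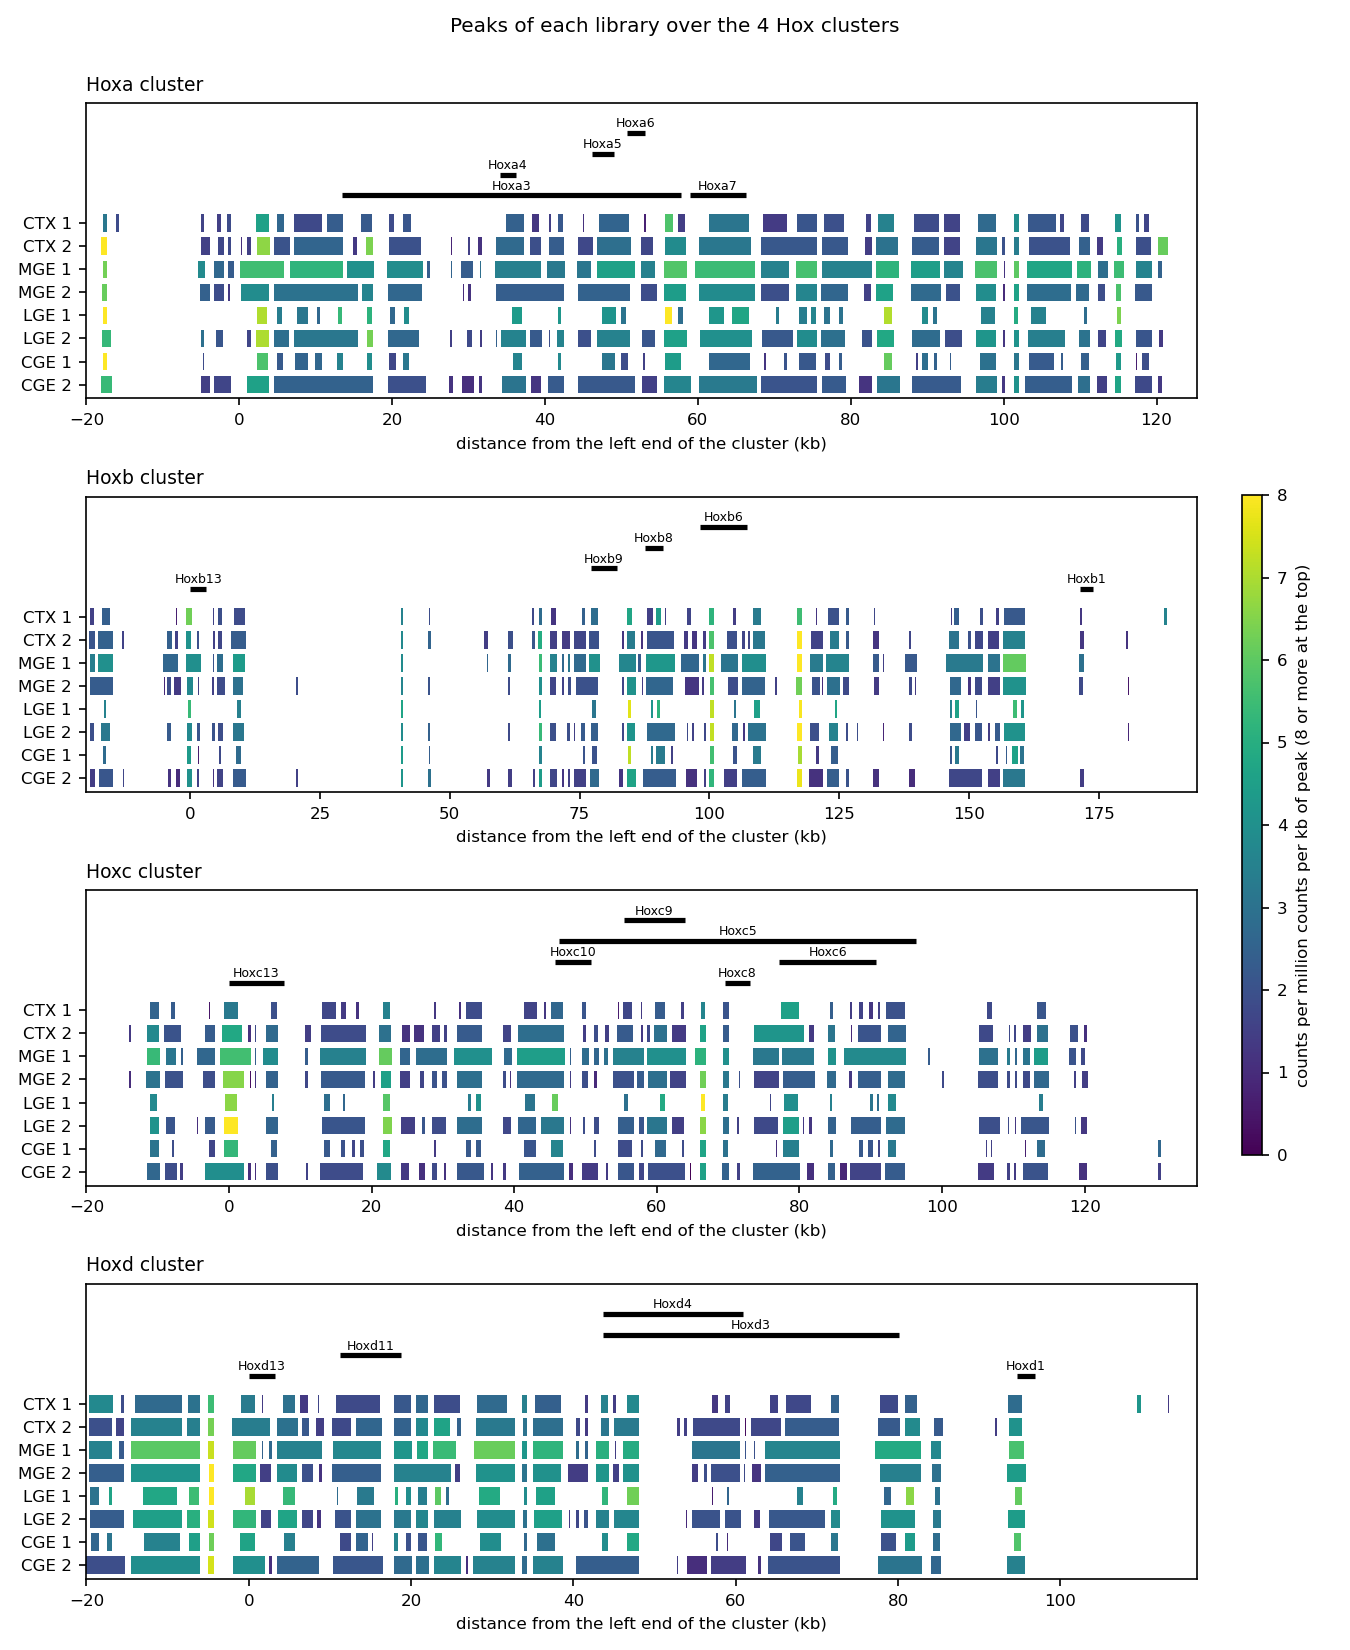
Peaks of each library (rows) along the 4 Hox clusters, with distance from the left end of the cluster in kb on the horizontal axis, the members described in the text as black bars and peak colour giving counts per 1000000 counts of the library (CPM) and kb of peak. Peaks of CTX 1, LGE 1 and CGE 1 were short where those of the other 5 libraries were joined into long stretches.

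The peaks over Hox genes were wide. A library had 73 to 109 of them with a median width of 664 to 2528 bp, against 534 to 661 bp over all its peaks. Peaks of 6 kb or more numbered 0 in CTX replicate 1, LGE replicate 1 and CGE replicate 1 and 3 to 14 in the other 5 libraries. In those 5 libraries they were 2.91% to 16.5% of the Hox peaks and 0.337% to 0.745% of all peaks. Peaks were called separately in each library, so their joining differs between libraries together with the length they cover.

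Although widely covered, the members had few counts per length. CPM, the counts of a gene per 1000000 counts assigned to genes in its library, divided by the covered length, had a median over members of 3.07 and 2.95 CPM per covered kb in CTX replicates 1 and 2, 4.27 and 2.98 in MGE, 5.06 and 3.50 in LGE, and 3.42 and 2.62 in CGE. The other genes with a peak had medians of 8.98 to 15.3 in the same libraries. The ratio of the Hox median to that of the other genes was 0.275 to 0.345, a narrow span beside that of the covered lengths. Every member with a peak lay below the median of the other genes in all 8 libraries. Below the 25th percentile of the other genes lay every member with a peak in 7 libraries and 38 of 39 in CTX replicate 1, where Hoxb13 was the exception at 7.64. With peaks within 1000 bp of a start site alone, the ratio was 0.187 to 0.270.

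**Figure D3:**
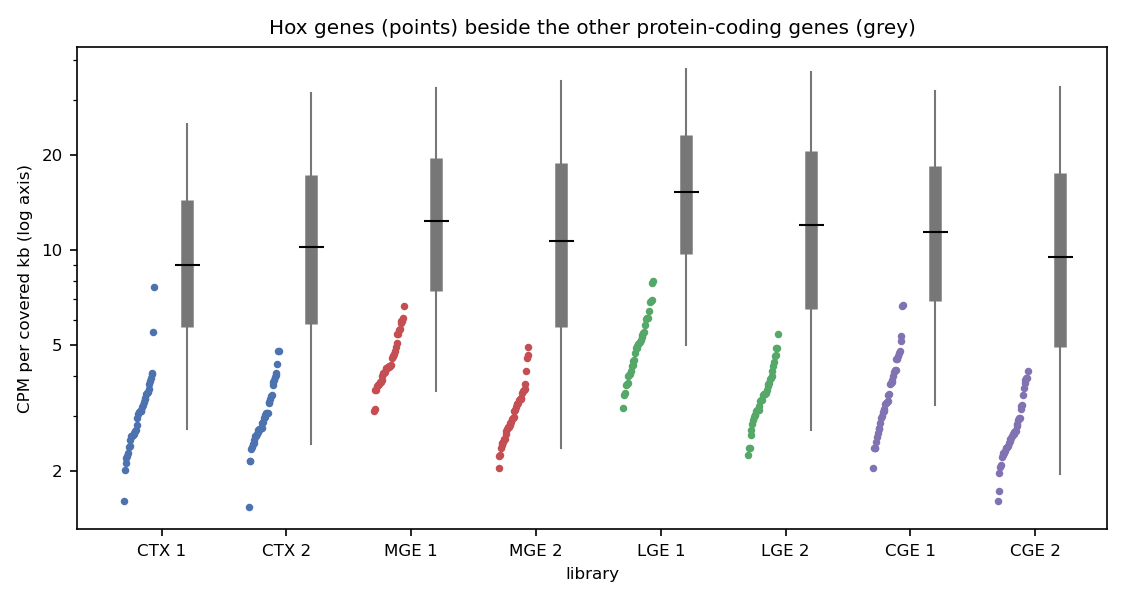
CPM per covered kb (log axis) of the Hox genes with a peak (points, 1 per gene) in each library, beside the other protein-coding genes (thin line from the 5th to the 95th percentile, thick bar the 25th to 75th percentile, black mark the median). In each library the Hox points end below the median of the other genes.

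Counts per kb also depend on the width of a peak, so Hox peaks were set beside all other peaks of their library in bands of width (a comparison chosen after the values had been seen, using CPM of all counts in peaks, and leaving out a band with fewer than 5 Hox peaks in a library). In peaks narrower than 1 kb the Hox median was 0.718 to 0.837 of the median of other peaks. From 1 to 2 kb it was 0.324 to 0.560, and from 2 to 4 kb 0.260 to 0.351 in the 8 libraries. From 4 to 6 kb it was 0.279 to 0.386 in 5 libraries, and at 6 kb or more 0.277 to 0.382 in 4 libraries. All 162 Hox peaks of 2 to 4 kb, all 56 of 4 to 6 kb and all 38 of 6 kb or more lay below the median of other peaks of their band and library. Of the 333 Hox peaks narrower than 1 kb, 253 did.

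Among the anterior genes, Hoxd1 had the most counts per length in its cluster by the mean over libraries, and was the highest in 4 of 8 libraries, with Hoxd13 or Hoxd9 above it in the others. Hoxd1 had 3.51 and 4.82 CPM per covered kb in CTX replicates 1 and 2, 6.11 and 4.96 in MGE, 6.89 and 4.89 in LGE, and 6.73 and 3.94 in CGE, each time from a single peak of 0.861 to 2.27 kb. The highest value was in LGE replicate 1 and the groups overlapped.

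Hoxa3 and Hoxd3, which pattern the posterior hindbrain and neck, had the longest covered length of the Hoxa and Hoxd clusters in 8 of 8 libraries. Peaks over Hoxa3 covered 15.8 and 30.8 kb in CTX replicates 1 and 2, 45.1 and 38.4 kb in MGE, 7.79 and 31.4 kb in LGE, and 9.90 and 40.0 kb in CGE. Peaks over Hoxd3 covered 11.9 and 24.1 kb in CTX, 25.1 and 26.8 kb in MGE, 4.65 and 23.9 kb in LGE, and 8.71 and 29.3 kb in CGE. For both genes the 3 shortest lengths were in CTX replicate 1, LGE replicate 1 and CGE replicate 1. Part of their counts lay in peaks that also overlap other Hox genes (Hoxa4, Hoxa5, Hoxa6 and Hoxa7 for Hoxa3, Hoxd4 for Hoxd3). Those counts cannot be ascribed to 1 gene. The regions chr6:52174978-52179984 over Hoxa3 and chr2:74730206-74741201 over Hoxd3 overlapped no other Hox gene.

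Of the middle genes, Hoxb6 and Hoxc5 had the most covered length in their clusters by the mean over libraries, Hoxc5 in 8 of 8 libraries and Hoxb6 in 3. Hoxb6 peaks covered 2.22 and 5.12 kb in CTX, 12.6 and 10.1 kb in MGE, 1.16 and 2.82 kb in LGE, and 1.36 and 10.8 kb in CGE. Hoxc5, annotated over a span of 49987 bp that also holds Hoxc6, Hoxc8, Hoxc9 and Hoxc10 or parts of them, had 14.4 and 31.2 kb in CTX, 38.9 and 33.8 kb in MGE, 7.80 and 28.3 kb in LGE, and 13.6 and 36.3 kb in CGE. In both genes MGE replicate 1 was the highest and LGE replicate 1 the lowest. Hoxc8, a gene of the trunk, differed from its neighbours in keeping a narrow peak, with 0.691 to 1.30 kb covered and 2.53 to 4.30 CPM per covered kb over the 8 libraries.

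Of the posterior genes, which act in the tail end and limbs, Hoxb13 and Hoxc13 had the most counts per length in their clusters by the mean over libraries, Hoxb13 in 2 of 8 libraries and Hoxc13 in 6. Hoxb13 had 7.64 and 4.08 CPM per covered kb in CTX, 4.27 and 2.71 in MGE, 6.11 and 3.51 in LGE, and 4.53 and 2.91 in CGE, with replicate 1 above replicate 2 in each region. Hoxc13 had 3.57 and 4.03 in CTX, 4.64 and 4.65 in MGE, 6.86 and 5.43 in LGE, and 5.18 and 3.67 in CGE. Both LGE libraries were above the other 6 for Hoxc13. Position along the clusters was not accompanied by a steady difference in level. The medians of paralog groups 1 to 4, 5 to 8 and 9 to 13 were 2.62 to 5.08, 2.49 to 5.09 and 2.68 to 4.60 CPM per covered kb over the 8 libraries.

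Every member had a peak in at least 5 libraries, and 37 of the 39 had one in all 8. Hoxa6 had no peak in LGE replicate 1. Hoxb1, the anterior gene of the fourth rhombomere of the hindbrain, had no peak in LGE replicate 1, LGE replicate 2 or CGE replicate 1, where its count is listed at 0. In the other libraries it had 0.693 and 0.998 CPM in CTX, 2.95 and 1.88 in MGE and 1.32 in CGE replicate 2, from 76 to 379 counts. In each of these 5 libraries that was the lowest summed level of any member.

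A Hox count was found in most nuclei. With each nucleus thinned to 3000 fragments, and shallower nuclei left out, the expected share with at least 1 count in a Hox peak was 54.3% and 78.1% in CTX replicates 1 and 2, 88.0% and 79.3% in MGE, 52.5% and 79.9% in LGE, and 52.2% and 78.3% in CGE. Unthinned it was 75.1% to 94.6%. The libraries with the low shares were again CTX replicate 1, LGE replicate 1 and CGE replicate 1. The median share per member was 1.90% to 7.41%, against 5.98% to 7.45% per other gene. Such shares grow with the length called as peak, as the summed counts do.

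Merged over the libraries, the peaks over members formed 76 regions, of which 46 had a peak in all 8 libraries (60.5%, against 23.3% of all merged regions). These 46 had a median width of 5437.5 bp, against 1533 bp over all shared regions, and 38 held a start site of a member. Regions of 6 kb or more made up 43.5% of them and 2.17% of all shared regions. Their median content was 3.48 CpG per 100 bp, against 1.5 over the other shared regions and 1.88 over those of 3 kb or more, and their median GC content was 52.5% against 48.6%. The widest Hox region measured 17558 bp.

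Whether Hox accessibility differs between regions of the forebrain was tested on counts summed per gene and library. The model of the 4 groups was fitted to 17357 genes. It left out the replicate number, so the technical split is part of its spread. Results with that number as a block are given in the closing section. Counts in Hox peaks were 3.00 and 5.48 per 10000 counts in CTX replicates 1 and 2, 10.5 and 6.46 in MGE, 2.73 and 6.20 in LGE, and 2.61 and 5.91 in CGE. Both MGE libraries were above all others, and the other 3 groups overlapped. In CTX against GE edgeR's quasi-likelihood test called 0 of the 39 members (4.51% of all genes called), with 0 at an unadjusted p under 0.05 (18.4% of all genes). In MGE against LGE it called 0 members (0.0864% of all genes), with 7 at an unadjusted p under 0.05 (6% of all genes). Between MGE and CGE it called 0 members (0.0864%), with 5 at an unadjusted p under 0.05 (6.6%), and between LGE and CGE 0 members (0% of all genes), with 1 at an unadjusted p under 0.05 (1.99%). DESeq2 called 1 member between MGE and LGE (2.73% of all genes), Hoxb1, which is listed at 0 in both LGE libraries and is given no fold. It called 0 members between CTX and GE (14.7%), between MGE and CGE (2.47%) and between LGE and CGE (0.576%).

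The fitted folds of the members lay on 1 side in both contrasts of MGE. In MGE against LGE all 39 fitted log2 folds were above 0, with a median of 1.11 beside 0.00 over all genes. These include Hoxb1, whose count is listed at 0 in both LGE libraries. Against CGE all 39 were above 0 in MGE too, with a median of 0.97. The medians were -0.26 for CTX against GE and -0.02 between LGE and CGE. These 4 contrasts share libraries. Neighbouring members share peaks and their counts, so the 39 folds are not separate observations. The member with the lowest p in MGE against LGE was Hoxb6, with 48.2 and 25.6 CPM in MGE and 7.44 and 11.3 in LGE, which gave a log2 fold of 2.01 ± 0.65 (SE) and an adjusted p of 0.672 in edgeR. Against CGE it was Hoxd11, with 1.33 ± 0.47 (SE) on the log2 scale and an edgeR adjusted p of 0.741.

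Length called as peak moved with these folds. Peaks were called in each library from the same counts, so length and counts cannot be told apart, and an offset for the covered length of each gene in each library gives the folds per length only. With the offset, which could be fitted for the 37 members with a peak in every library, the median log2 fold of the members was -0.14 between MGE and LGE (-0.18 over all genes), 0.30 between MGE and CGE (0.11), 0.39 between LGE and CGE (0.29) and -0.24 between CTX and GE (-0.15). The offset gave 0 called members by edgeR in each of these contrasts, with 0, 4, 2 and 0 at an unadjusted p under 0.05 in that order (5.09%, 3.28%, 9.78% and 12% of all genes). Within replicate number 1 the Hox counts per 10000 were 3.84 times as high in MGE as in LGE and 4.00 times as high as in CGE, with 255 kb of Hox peaks in MGE, 60.9 kb in LGE and 85.8 kb in CGE. Within replicate number 2 the same ratios were 1.04 and 1.09, with 231, 199 and 246 kb. Without MGE replicate 1 the median log2 fold in MGE against LGE was 0.70 and without LGE replicate 1 it was 0.48, with 0 members at an unadjusted p under 0.05 in either (3.15% and 2.30% of all genes). Without LGE replicate 2 it was 1.94, with 25 members at an unadjusted p under 0.05 (4.14% of all genes) and 0 called.

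**Figure D4:**
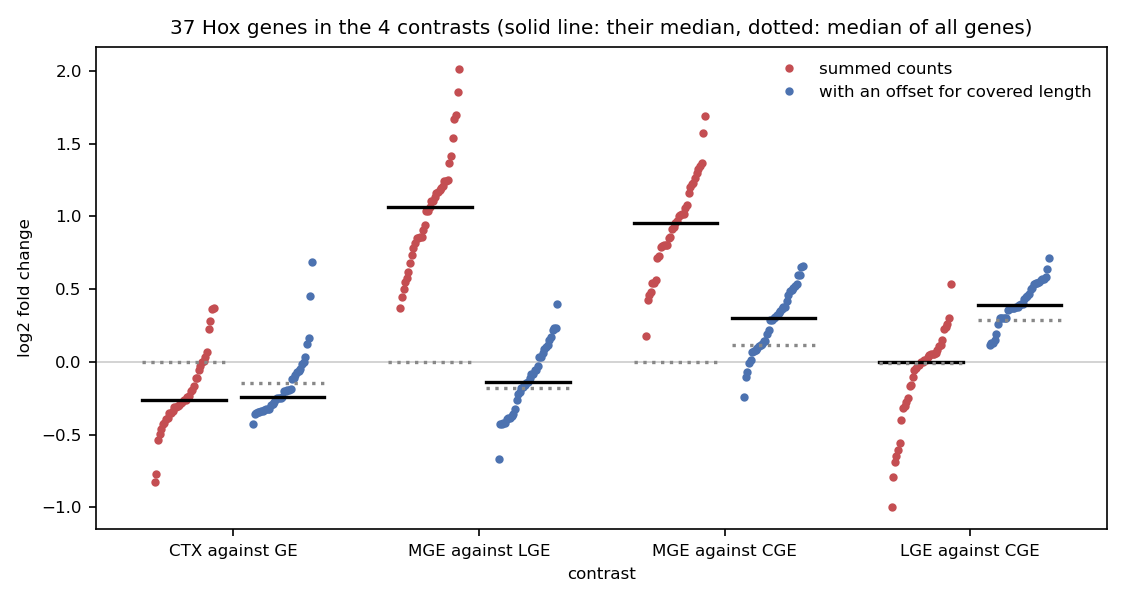
Log2 fold changes of the 37 Hox genes with a peak in every library in the 4 contrasts (horizontal axis), from summed counts and with an offset for covered length, 1 point per gene. Black lines are medians of these genes and dotted lines medians of all genes. The points that compare MGE with LGE or CGE lie above 0 for summed counts and spread across 0 with the offset.

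The 46 shared Hox regions gave a like result. Of these edgeR's quasi-likelihood test called 0 between CTX and GE (14.9% of all regions called), 0 between MGE and LGE (0.694%), 0 between MGE and CGE (0.325%) and 0 between LGE and CGE (0%). At an unadjusted p under 0.05 there were 0 (28.3% of all regions), 1 (13.5%), 1 (12.9%) and 0 (4.78%) in that order. DESeq2 called 0 in each (23.1%, 7.4%, 6.61% and 0.611% of all regions). With an offset for covered length 1 region was called in CTX against GE (9.17% of all regions), at chr15:102994559-103003329. It holds a start site of Hoxc6 and lies within the longer span of Hoxc5. It was higher in CTX by 0.79 ± 0.22 (SE) on the log2 scale with an edgeR adjusted p of 0.0499. Without the offset the value was 0.64 with an edgeR adjusted p of 0.470. The region had 11.2 and 29.8 CPM of all counts in peaks in CTX replicates 1 and 2 and 25.9 and 16.4 in MGE. It had 8.23 and 17.1 in LGE and 7.41 and 17.6 in CGE. In these values the groups overlapped, and the highest library was CTX replicate 2, taken at E14.5. Divided by covered length, which is what the offset compares, both CTX libraries lay above every library of the other groups. CTX replicate 1 was then the highest, at 4.54 per kb, and MGE replicate 2 the lowest, at 2.04.

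In 5 of the 46 regions the longest covered length was within 2-fold of the shortest. The highest library there was 1.57 to 2.99 times the lowest in CPM, against 1.99 to 30.3 times in the other 41, which is a description only since length was called from the same counts. The steadiest of the 46, chr11:96294257-96295195, lies in an intron of Hoxb6 and in the antisense gene Hoxb5os with no exon annotated under it, and its middle is printed above. It had 4.64 and 5.30 CPM of all counts in peaks in CTX replicates 1 and 2, 6.48 and 4.37 in MGE, 5.18 and 5.78 in LGE, and 4.12 and 4.73 in CGE, over 716 to 923 bp of peak. The groups overlapped, and the highest library was 1.57 times the lowest. A region over the Hoxc8 start, chr15:102990296-102991291, had 1.92 and 2.13 in CTX, 3.8 and 2.86 in MGE, 2.30 and 2.78 in LGE, and 2.18 and 2.41 in CGE. Both MGE libraries were the highest there.

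Genes related to the Hox clusters by position, descent or function were read from the same fit. When cortex was set beside the eminences, edgeR called 4.51% of all genes there, and for each pair of eminences 0.0864% or fewer. At shares this low, 0 calls between eminences do not set a short list of genes apart from genes at large. Whether 1 call in a list of 6 or 9 genes exceeds the share of 4.51% was not tested. The Evx genes, homeobox genes beside the Hoxa and Hoxd clusters, had 0 of 2 called in any contrast and a median log2 fold of 1.02 in MGE against LGE. Their median CPM per covered kb was 2.91 to 5.41 over the 8 libraries. The 6 ParaHox genes, a sister group of the Hox genes, had medians of 2.44 to 4.63 CPM per covered kb, beside 2.62 to 5.06 for the Hox genes. Of these 6, 1 fell in CTX against GE, Gsx2, which specifies ventral progenitors. It stood at -2.96 ± 0.48 (SE) on the log2 scale with an edgeR adjusted p of 0.0208. Of the 9 TALE genes, which encode the Meis, Pbx and Pknox partners of Hox proteins, 1 fell in CTX against GE, Meis1, at -0.62 ± 0.12 (SE) on the log2 scale with an edgeR adjusted p of 0.0330, and their median was 6.81 to 13.3 CPM per covered kb. Of the 9 genes of retinoic acid synthesis, breakdown and reception and the 18 Polycomb and trithorax genes, 0 were called in each contrast by edgeR.

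The deposited motif counts hold 21 motifs named after HOX genes among 579. These made up 1.22% and 1.35% of all motif counts in CTX replicates 1 and 2, 1.23% and 1.16% in MGE, 1.46% and 1.2% in LGE, and 1.24% and 1.17% in CGE. The highest was LGE replicate 1, and the groups overlapped. By edgeR 0 of the 21 were called in any contrast (0% of all motifs in each). At an unadjusted p under 0.05 there were 5 between CTX and GE (21.8% of all motifs), 1 between MGE and LGE (5.01%), 1 between MGE and CGE (2.07%) and 3 between LGE and CGE (9.84%). DESeq2 called HOXC10 and HOXD13 higher in CTX than in GE (15.5% of all motifs called), and Hoxa11 higher in LGE than in CGE (0.691%) and in MGE than in CGE (0.691%), while it called 0 of the 21 between MGE and LGE (1.38%). Without LGE replicate 2 edgeR called HOXA5 and Hoxa11 higher in LGE than in CGE (1.04% of all motifs called) and HOXA5 lower in MGE than in LGE (0.864%). HOXA5 had 5137 CPM of motif counts in LGE replicate 1 and 3034 to 3511 in the other 7 libraries. Hoxa11 had 53.4 and 40.0 CPM in LGE, 37.5 and 30.4 in MGE and 18.9 and 20.2 in CGE, without overlap. Its log2 fold in LGE against CGE was 1.27 ± 0.21 (SE) with a DESeq2 adjusted p of 1.2e-06. The edgeR adjusted p was 0.232. HOXD13 had 1001 and 924 CPM in CTX against 770 to 908 in GE, without overlap, while HOXC10 had 269 and 239 in CTX against 195 to 244 in GE, with overlap. HOXA13 and HOXB13 had equal values in every library, so they do not count as separate evidence, and a motif count leaves the bound factor unknown.

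Among classes of nuclei the Hox share of counts differed less than among libraries. Nuclei were clustered without any region in or within 100 kb of a Hox cluster, and clusters were named from marker lists. Progenitor-like nuclei had 2.6 Hox counts per 10000 counts in CTX replicate 1, 10.4 and 6.64 in MGE replicates 1 and 2, 2.72 and 6.04 in LGE, and 2.65 and 5.99 in CGE. GABAergic-like nuclei had 10.7 and 6.23 in MGE, 3.14 and 7.53 in LGE, and 2.93 and 7.03 in CGE. Both classes followed the library, and within a library the highest named class of at least 50 nuclei was 1.03 to 1.34 times the lowest. Single clusters of at least 50 nuclei differed more, by 1.16 to 2.07 times within a library. The progenitor-like nuclei lay mostly in cluster 3 in LGE replicate 1 and CGE replicate 1 (3114 and 1570 nuclei) and mostly in cluster 4 in LGE replicate 2 and CGE replicate 2 (2399 and 1556). In each of these libraries the smaller of the 2 clusters was the higher, at 4.17 against 2.64 per 10000 in LGE replicate 1, 4.25 against 2.59 in CGE replicate 1, 7.53 against 5.89 in LGE replicate 2 and 8.03 against 5.90 in CGE replicate 2. No cluster was named from the hindbrain list. That list came second in GABAergic-like cluster 1, with 3 markers raised (log2 fold above 0.5) and a mean log2 fold of 0.27. The GABAergic list had 8 of 9 raised there and a mean of 1.36. At resolution 1 a GABAergic-like cluster of 2539 nuclei had 4 hindbrain markers raised, beside 9 of 9 GABAergic markers.

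**Figure D5:**
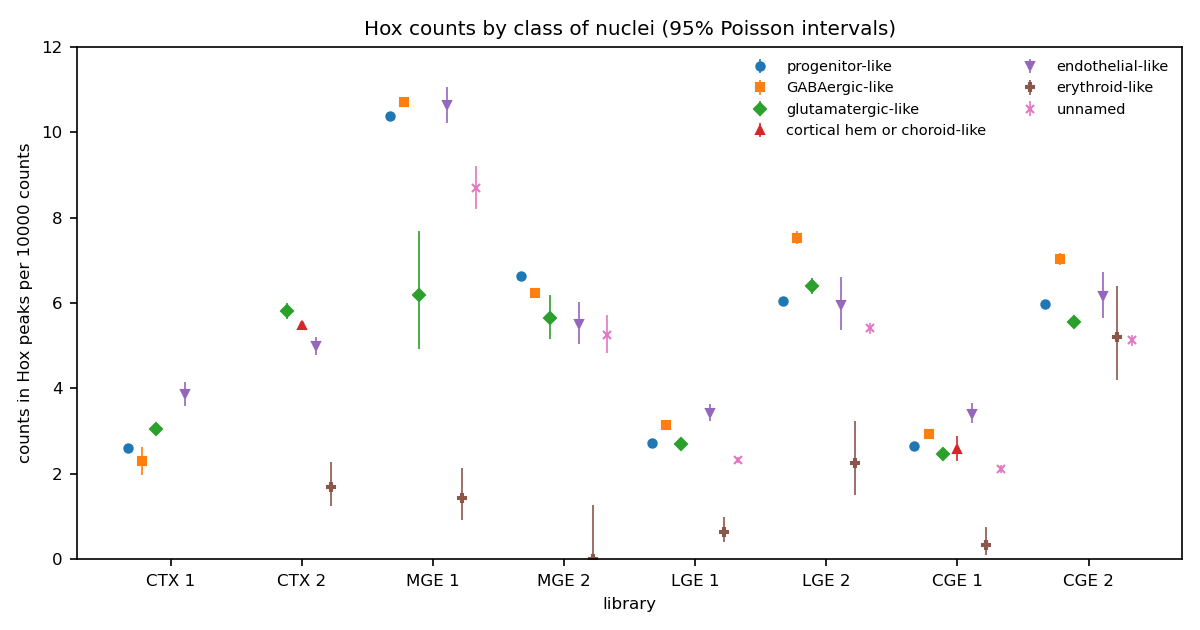
Counts in Hox peaks per 10000 counts (vertical axis) by class of nuclei in each library, with exact 95% Poisson intervals that cover counting error only, for classes of at least 5 nuclei in a library. Where drawn, the erythroid-like points lie below the other classes except in CGE replicate 2. The other points of a library lie closer together, as in CTX replicate 1 (2.29 to 3.86). In MGE replicate 1 the 14 glutamatergic-like nuclei, at 6.19, lie apart from the progenitor-like nuclei, at 10.4.

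The class that stood apart in most libraries was small. The 97 erythroid-like nuclei, named from 5 of 8 markers, had 1.69 Hox counts per 10000 and a Hox count in 30.9% of nuclei, against 81.5% to 95.4% of nuclei in the other classes (unthinned, pooled over libraries). By library their values were 1.70 in CTX replicate 2, 1.44 and 0 in MGE (for the 0, from 5 nuclei, the exact upper bound was 1.26), 0.643 and 2.25 in LGE, and 0.327 and 5.21 in CGE. They were the lowest class in each of these 7 libraries except CGE replicate 2, where 8 nuclei gave an exact Poisson interval of 4.19 to 6.41. Smaller differences repeated across libraries among 3 clusters of the LGE and CGE. The GABAergic-like cluster 7 had 3.19 and 7.67 per 10000 in LGE replicates 1 and 2 and 3.20 and 7.60 in CGE, while cluster 8, which no list named, had 2.32 and 5.41 in LGE and 2.11 and 5.12 in CGE. Cluster 1, also GABAergic-like, had 2.23 and 4.45 in LGE and 2.06 and 5.34 in CGE. Cluster 7 was above both in 4 of 4 libraries. Clusters 8 and 1 had more of their counts in peaks of low density, 2.32% to 3.69% and 2.22% to 3.87% against 1.79% to 2.91% in cluster 7, whose part in the difference was not tested.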

How the data were processed

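Nuclei were profiled by droplet-based ATAC-seq, and the submitters' processing notes name Cell Ranger ATAC 1.2.0 with mm10 (GRCm38). For each library the authors deposited a peak list, raw counts per peak and nucleus, and raw counts per motif and nucleus. Peaks were called separately in each library, the counts are mostly even because both fragment ends were counted, and the barcodes had been filtered already. All nuclei were kept. A peak was assigned to every gene whose body or upstream 2000 bp it overlapped, with genes from GENCODE M21, and the covered length of a gene sums whole peaks. CPM per gene are relative to counts assigned to genes. Counts were summed per library and tested with edgeR 4.0.16 (glmQLFit, TMM, filterByExpr, R 4.3.3) in 1 model of 4 groups, with Benjamini-Hochberg adjustment over all features and a threshold of 0.05. DESeq2 1.42.0 was an alternative. The tests were run on simulated counts with a single spread for all features and changes in CTX alone. Those counts held no replicate split, so this check does not measure whether Hox genes could be called here. Nuclei were clustered on 68183 shared regions (TF-IDF, 30 latent components, 20 neighbours, Leiden at resolution 0.5). Doublets were not removed except in an alternative that left out the 5% of nuclei with the most counts. Shares of nuclei are exact hypergeometric expectations at 3000 fragments.

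Genes named in full were, in each cluster, the member with the highest mean CPM per covered kb and the one with the most covered length, and members called or without a peak. The values of 1 gene that this rule names are not reported here. The members and lists were chosen with earlier results of these data known, and the rule that turns marker lists into class names was set after clusters had been seen. Alternatives covered the scaling, the low-count filter, the test, the peaks used, covered length, thinning, clustering, the replicate number and each library left out.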

Additional observations from a re-analysis of the deposited data

How the results depend on the processing

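Of 162 alternatives to the counts of called members, 155 gave 0, where those for motifs in the 3 contrasts within GE were added after seeing the data. DESeq2 gave 1 Hox gene in MGE against LGE, 2 HOX-named motifs in CTX against GE, and 1 motif each in LGE against CGE and MGE against CGE. The covered-length offset gave 1 Hox region in CTX against GE. Leaving out each library in turn gave 0 called genes and regions in each contrast, and 0 to 2 motifs in LGE against CGE and 0 to 1 in MGE against LGE, above 0 only without LGE replicate 2. The mean over libraries of the median CPM per covered kb was 3.48 (SD 0.808, n = 8) and 5.08 with start-site peaks alone, and 3.26 to 3.61 without 1 library. The mean covered share was 39.1% (36.8% to 42.6% without 1 library) and 31.3% without low-density peaks. The mean share of nuclei with a Hox count was 70.3% thinned (67.8% to 72.9% without 1 library) and 88.1% without thinning. The mean ratio of the highest to the lowest class was 1.21 (1.19 to 1.24 without 1 library).

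The median log2 fold of the members depended on the setting more than the calls did. Over all alternatives it ran from -0.14 to 1.94 in MGE against LGE, from 0.30 to 1.87 in MGE against CGE, from -0.93 to 0.75 in LGE against CGE and from -0.61 to 0.06 in CTX against GE. The sign in LGE against CGE was -0.93 without LGE replicate 2 and 0.75 without CGE replicate 2. Replicate numbers were checked as pairs: correlations of same-numbered deviations over genes were 0.0327 to 0.282. As not all were above 0.1, the numbers were not used in the tests reported. This rule does not measure the technical split in the Hox counts. With the replicate number as a block 0 Hox genes were called in each contrast, with 599, 9, 8 and 0 of all genes called (CTX with GE, MGE with LGE, MGE with CGE, LGE with CGE), and 17 members at an unadjusted p under 0.05 in MGE against LGE (6.49% of all genes) and 11 in MGE against CGE (7.12%). Members with a peak had 76 counts or more, and no count is given where a library had no peak.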
